A study of Nicotiana tabacum with 39 samples.

Results

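Leaves harvested after 30 min of light were compared with leaves harvested at the end of an extended dark treatment (0 min of light). The comparison uses the 3 libraries titled 0030 and the 3 titled 0000, which are 6 of the 39 libraries of a tobacco (Nicotiana tabacum) series, and every transcript in their count tables. Light is sensed in leaves by phytochromes and cryptochromes, photoreceptors that release transcription factors from repression within minutes, and in pale tissue the return of light sets off de-etiolation, in which etioplasts are turned into chloroplasts. Darkness is also a time of sugar shortage for a leaf, so a return to light ends a starvation state as well as a signalling state. Neither photoreceptors, plastids nor sugars were measured here.

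Plants of both groups were grown on soil nearly to maturity in days of 16 h of light at 350 uE/m2/s and were then darkened as whole plants, for a length of time not given in the sources used here. Leaves of the 30-min group were taken after the return to light and those of the 0-min group at its start. Each library is a pool of the middle parts of 2 young leaves from each of 3 plants, so the spread between libraries is a spread between pools. Other groups of 3 libraries were used below only beside the comparison. Most were harvested 5 and 10 min, 1, 2, 4, 8, 16, 40 and 64 h and, as the last, 6720 min into the light. Controls had no extended dark treatment, and the clock time of their harvest was not given in the sources used here. Dark treatment and time of day therefore cannot be told apart in any difference from control. No leaves kept dark were sampled 30 min later, so light and the passing of time or of the day cannot be told apart in any difference below.

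Transcripts carry NCBI GI numbers as their only identity, and 0 of the 53725 numbers could be paired with a gene in the reference table used here. Gene names, chromosome positions and sequences are therefore not given, the leaf tissue could not be checked against marker genes, and 4 transcripts chosen by a rule are printed by number. The 30-min libraries held 24541985, 15844109 and 24590689 counts and the dark libraries 18709986, 17762323 and 19723283 counts, within a range of 15844109 to 37269515 over the series. Pearson's r of log2 levels over the tested transcripts was 0.964 to 0.982 between 30-min libraries, 0.967 to 0.976 between dark libraries, and 0.944 to 0.971 for pairs of 1 library from each group.

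At 30 min of light 1166 transcripts were higher and 1318 were lower than at the end of darkness. These were 2.76% and 3.12% of the 42181 transcripts tested, or 5.89% together (edgeR quasi-likelihood test, Benjamini-Hochberg adjusted p below 0.05, n = 3 per group). Below, they are called the raised and the lowered transcripts. Both directions were about as frequent, but the sizes were not alike. The raised transcripts differed by a median log2 of 1.04, with an interquartile range of 0.73 to 1.57, and by the fitted difference 177 of them were at least 4-fold and 59 at least 8-fold higher. The lowered transcripts differed by a median log2 of -0.71, with an interquartile range of -0.996 to -0.54, and only 57 were at least 4-fold and 10 at least 8-fold lower. Of the raised transcripts 48.4% differed by less than 2-fold, against 75.2% of the lowered. The median over all tested transcripts was 0.0041. A further 585 transcripts were at least 2-fold higher and 717 at least 2-fold lower without passing the test. Which direction was the more frequent depended on scaling, since with library sizes alone 1130 were higher and 904 lower. The count of higher transcripts was 674 without dark replicate 3, and that of lower transcripts was 811 without 30-min replicate 1 and 832 without 30-min replicate 2.

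**Figure D1:**
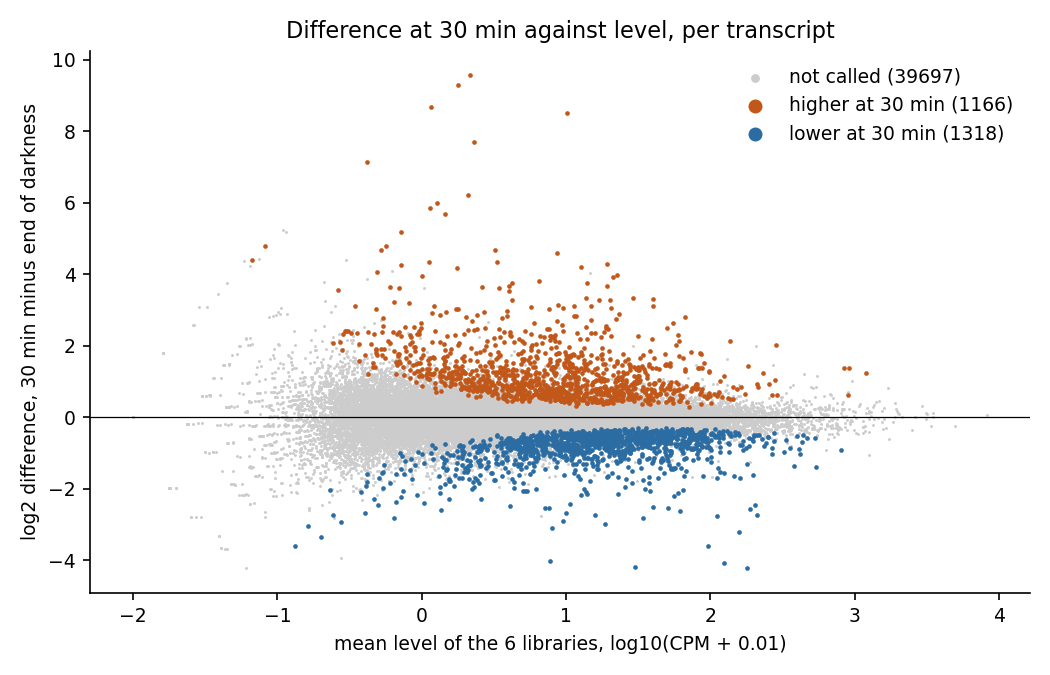
Each point is 1 of the 42181 transcripts tested, with the mean level of the 6 libraries on the x axis (log10 of CPM plus 0.01, where CPM are counts scaled to a common library size) and the fitted log2 difference, 30 min minus end of darkness, on the y axis. The 1166 raised transcripts (orange) spread toward low levels at their largest differences, where the fitted values of the 6 with 0 counts in every dark library are not measured folds, and the 1318 lowered transcripts (blue) end at -4.21.

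In the dark the raised transcripts had a median level close to that of all transcripts, and the lowered a higher one. The median of the raised was 10.6 CPM at 30 min, against 4.73 CPM at the end of darkness, where CPM are counts scaled to a common library size by the TMM method. The lowered transcripts had a median of 12.9 CPM at 30 min, against 21.3 CPM at the end of darkness, while the median of all tested transcripts at the end of darkness was 5.26 CPM. In the dark libraries 202 raised transcripts averaged under 1 CPM, and 44 of the raised still did so at 30 min. At the abundant end, 52 raised transcripts averaged at least 100 CPM at 30 min and 126 lowered transcripts did so at the end of darkness. In 1147 of the raised transcripts (98.4%) all 30-min libraries lay above all dark libraries, and over all tested transcripts 10.6% did. Likewise 1301 of the lowered (98.7%) had all 30-min libraries below all dark libraries, with 11.1% among all tested. These counts follow in large part from the test that chose the transcripts and are given as a description.

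In both directions the median called difference was largest at the lowest levels, where the error of a fold is also larger. Among transcripts that averaged under 1 CPM over the 39 libraries, the raised had a median log2 difference of 2.09, against 1.11 between 1 and 10 CPM, 0.82 between 10 and 100 CPM and 0.79 above 100 CPM. For the lowered the medians in these classes were -1.77, -0.83, -0.61 and -0.68. The median SE of a log2 difference over all transcripts of these classes was 0.47, 0.24, 0.16 and 0.20. Falls were called least often at low levels, with 0.612% of transcripts under 1 CPM, 2.37% between 1 and 10 CPM, 5.60% between 10 and 100 CPM and 2.51% above 100 CPM. Rises made up 1.61%, 2.85%, 3.36% and 1.81% of the same classes. Small changes of scarce transcripts were not detectable at this depth. For 6 raised transcripts all 3 dark libraries held 0 counts. Set against a floor of 3 counts over that group, they were at least 2.26- to 87.5-fold higher at 30 min, with mean levels there of 0.114 to 4.27 CPM. The median of the raised transcripts was 1.04 with these 6 at their bound as well.

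The 2 sets moved different shares of the RNA. Raised transcripts took 3.25%, 3.45% and 3.90% of the counts in the 30-min libraries, against 1.83%, 1.65% and 1.60% in the dark libraries. For lowered transcripts the shares were 3.62%, 3.55% and 3.89% at 30 min, against 6.41%, 6.01% and 6.21% at the end of darkness. At 30 min both sets thus held similar shares of the counts, whereas before light the lowered set held more than 3 times the share of the raised set in every library. These shares describe the choice of the sets and are not a test of it.

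The 4 printed transcripts were the largest rise and fall in fold, and the largest gain and loss in CPM, among 593 raised and 947 lowered transcripts that had no overlap between groups and at least 10 CPM in the higher group. Transcript 698461496, the largest rise in fold, stood at 9.53, 18.8 and 32.7 CPM at 30 min, against 0.095, 0.058 and 0 CPM at the end of darkness. It was close to undetected in all dark libraries, with 3 counts in all against 1464 at 30 min. The ratio of these counts at equal depth was 413, with a 95% counting interval of 141 to 2006 that leaves out the spread between pools. Its fitted log2 difference was 8.51 (SE 1.28, adjusted p = 3.03e-05, edgeR).

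The pulse of 698461496 was short. It stood at 0.141, 0.118 and 0.451 CPM at 5 min and at 0.685, 0.238 and 10.3 CPM at 10 min. Replicate 3 was thus already high at 10 min, at a level close to that of replicate 1 at 30 min. At 1 h its level was 1.56 ± 1.48 CPM and at 2 h 0.105 ± 0.140 CPM (SD, n = 3), and it then averaged under 0.06 CPM up to 64 h. Controls had 0.124 ± 0.076 CPM, and leaves at 6720 min 0.464 ± 0.429 CPM. At 1 h it did not differ by the test from 10 min (log2 -1.32, SE 0.80, adjusted p = 0.230, edgeR), and at 2 h it was lower (log2 -5.43, SE 1.23, adjusted p = 0.000559, edgeR).

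Transcript 698498880, with the largest gain in CPM, was already abundant in the dark. Its level was 1641, 2110 and 1251.8 CPM at 30 min, against 580, 1080 and 475 CPM at the end of darkness. The groups did not overlap, but the lowest 30-min library was only a little above the highest dark one. The log2 difference was 1.23 (SE 0.37, adjusted p = 0.0387, edgeR), and the call was lost in 9 of 18 alternative analyses, among them without replicate 2 at 30 min (adjusted p = 0.192, edgeR) and without dark replicate 3 (adjusted p = 0.210, edgeR), with a range of 0.00400 to 0.501 over the 18. Libraries outside the comparison gave the same direction, as it was higher at 1 h than at 10 min (log2 1.78, SE 0.37, adjusted p = 0.000449, edgeR). The level was 2586 ± 562 CPM at 1 h, 2405 ± 73 CPM at 2 h, 2308 ± 1164 CPM at 4 h and 1662 ± 494 CPM at 8 h, and it was back to 405 ± 81 CPM at 16 h, where controls had 405 ± 146 CPM. It was thus a plateau of several hours and not a pulse. At 40 h, 64 h and 6720 min it averaged 219, 232 and 215 CPM, below the 754 ± 220 CPM of 10 min (adjusted p = 0.000173, 0.000288 and 0.000137, edgeR).

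Transcript 698498471, the largest fall in fold, stood at 17.4, 22.4 and 15.4 CPM at 30 min, against 262, 453 and 306 CPM at the end of darkness (log2 -4.21, SE 0.52, adjusted p = 1.98e-06, edgeR). In the first minutes of light its level was still that of the dark leaves, with 291, 583 and 349 CPM at 5 min and 276, 432 and 235 CPM at 10 min. The fall therefore lay between 10 and 30 min, and it brought the transcript to 18.4 ± 3.56 CPM at 30 min, beside 18.6 ± 6.77 CPM in the controls (SD, n = 3). At 1 h it had 15.6 ± 3.54 CPM, and at 8 h 2.61 ± 1.75 CPM, which was below control (log2 -2.87, SE 0.54, adjusted p = 0.000245, edgeR). Leaves at 6720 min had 14.8 ± 12.6 CPM. Both this transcript and 698461496 kept their calls in all 18 alternative analyses.

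Transcript 698574504 had the largest loss in CPM, a smaller and slower fall. Its level was 566, 641 and 458 CPM at 30 min, against 929, 1390 and 814 CPM at the end of darkness (log2 -0.91, SE 0.22, adjusted p = 0.00896, edgeR). It went on down for hours, to 394 ± 78 CPM at 1 h, 254 ± 22 CPM at 2 h, 158 ± 40 CPM at 4 h and 123 ± 11 CPM at 16 h, and leaves at 6720 min had 187 ± 29 CPM. Controls had 270 ± 38 CPM, so that it was above control by the test at 1 h (log2 0.55, SE 0.22, adjusted p = 0.0451, edgeR) and below it at 8 h (log2 -1.05, SE 0.22, adjusted p = 0.000885, edgeR). The call at 30 min was lost in 6 of 18 alternative analyses, and without dark replicate 2 the log2 difference was -0.65 (adjusted p = 0.108, edgeR). Over the 18 the adjusted p ran from 0.000382 to 0.726.

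**Figure D2:**
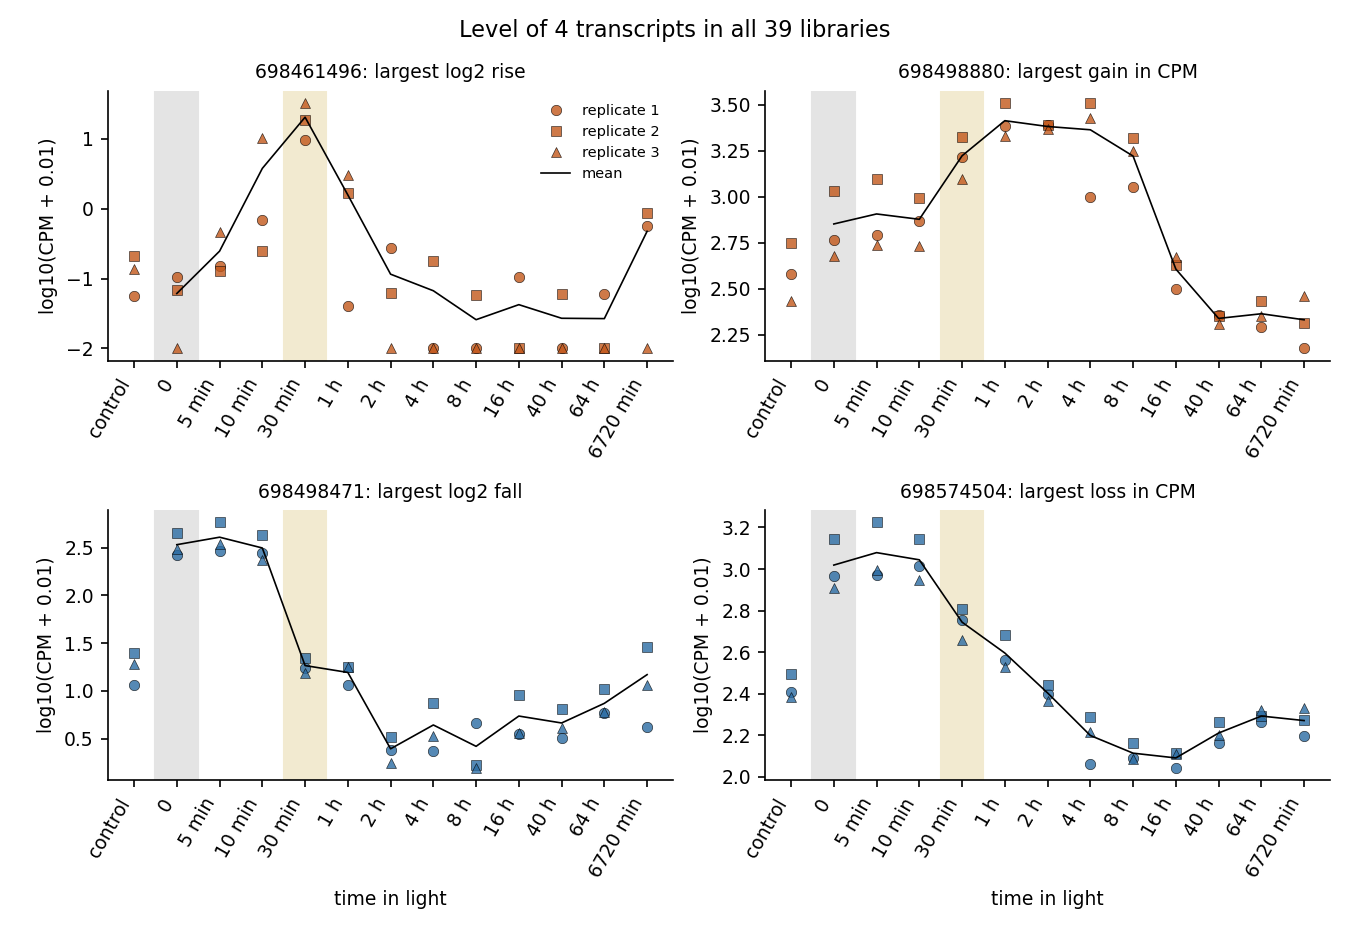
Each panel shows 1 transcript in all 39 libraries, with the group on the x axis and log10(CPM + 0.01) on the y axis. Symbols are replicates, the line joins the means from 0 min on, and the end of darkness is shaded grey and 30 min yellow. At 30 min 698461496 peaks at a mean of 20.3 CPM, 698498880 starts a plateau that lasts to 8 h, 698498471 stands at the control level and 698574504 is part of the way down.

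Among the most strongly changed transcripts the same pool was often the highest of its group. Under the rule for printed transcripts, the 20 largest rises had log2 differences of 3.06 to 8.51, and their mean levels were 10.3 to 72.8 CPM at 30 min, against 0.051 to 8.31 CPM at the end of darkness. Replicate 3 was the highest of the 30-min libraries in 17 of the 20, and replicate 3 was also the highest of the 10-min libraries in 18 of them, though at 5 min in only 9. The 20 largest falls ran from -4.21 to -2.52, with 0.911 to 55.1 CPM at 30 min, against 12.2 to 364 CPM at the end of darkness. Here replicate 2 was the highest dark library in 19 of the 20 and the highest 30-min library in 17. How often these pools were highest over all tested transcripts is not given here. The part of these pools in the size of the differences was not tested for these sets of 20. Among their members, values with libraries left out are given only for 698461496 and 698498471.

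With the calls made in 2 replicate numbers and the difference read in the number left out, 315 to 743 raised transcripts had the same sign there in 97.0% to 99.4% of cases, and a median log2 difference of 1.15 ± 0.43 (SD, n = 3 rotations). For the lowered, 452 to 620 transcripts had the same sign in 94.6% to 100% of cases, with a median of -0.82 ± 0.07. Over all tested transcripts 49.0% to 50.7% were higher in the number left out. The medians of the rises spread more over the 3 rotations than those of the falls.

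Whether the differences were present in other leaves was read from the step between 10 min and 1 h, which shares no library with the comparison. The libraries of 10 min and 1 h did enter the low-count filter and the estimate of spread behind the calls. At 1 h 769 of the 1166 raised transcripts (66.0%) were higher than at 10 min and 3.60% were lower, against 14.6% and 14.1% of all tested transcripts (edgeR quasi-likelihood test, adjusted p below 0.05). Of the 1318 lowered transcripts 1088 (82.5%) were lower and 0.531% were higher. The raised set had a median log2 difference of 0.88, with 0.79, 0.94 and 0.87 in replicates 1 to 3. The lowered set had -0.90, with -0.97, -0.92 and -0.81. For all tested transcripts the median was 0.013. So both sets lay at 1 h on the side on which 30 min had put them, and by a similar amount. With 5 min in place of 10 min as the starting point, 67.3% of the raised were higher and 84.1% of the lowered were lower, beside 12.2% and 11.7% of all tested.

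The medians of the whole sets moved little before 30 min. Relative to the mean of the 10-min libraries, the median of the raised transcripts was 0.81, 0.91 and 0.99 in the 30-min libraries, against -0.04, -0.09 and -0.16 in the dark libraries, and that of the lowered was -0.70, -0.70 and -0.61 at 30 min, against -0.01, 0.07 and 0.01 in the dark. Between 5 and 10 min, replicates 1 to 3 moved by a median of 0.020, -0.020 and 0.10 in the raised set and by 0.029, 0.006 and -0.040 in the lowered set, in each replicate less than the difference at 30 min. With 5 min as the baseline of the 30-min difference 1118 transcripts were higher and 1271 lower, and with 10 min 1192 and 1400. The 59 rises of at least 8-fold went another way than the whole raised set. Their median log2 difference from control was -0.59 at 5 min and 0.43 at 10 min, beside 0.012 and 0.030 for all tested. The step of this class from 5 to 10 min was not tested, and its values per replicate are not given. Replicate 3 was the highest 10-min library in 18 of the 20 largest rises described above.

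**Figure D3:**
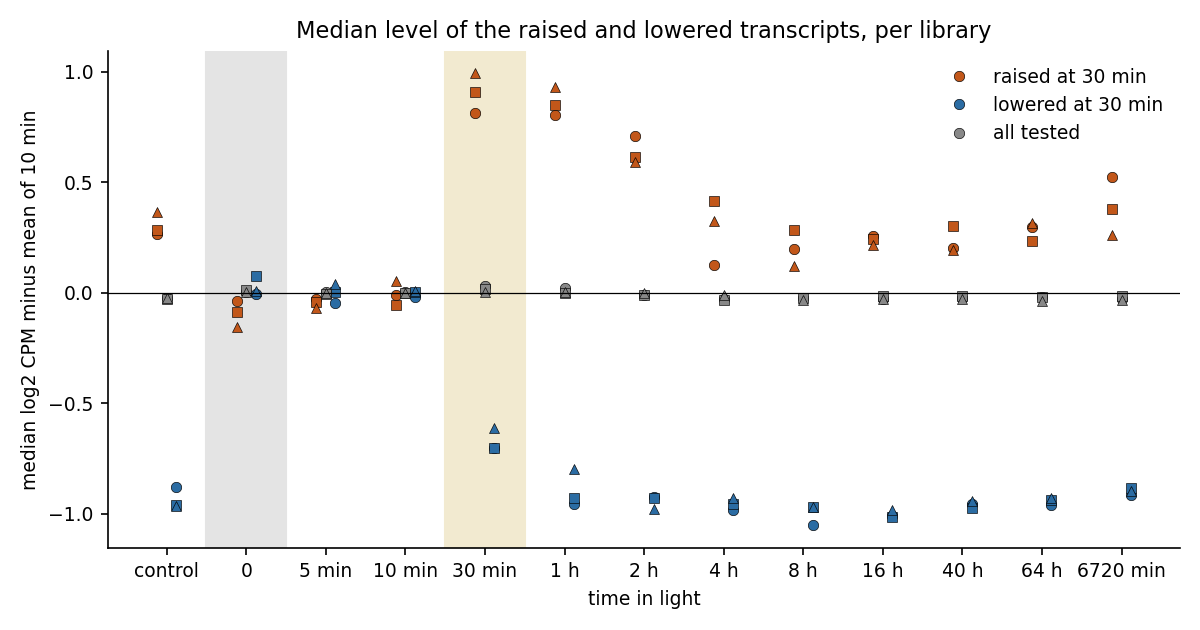
Each symbol is the median over 1 set of transcripts in 1 library, as log2 CPM minus the mean of the 10-min libraries, with the group on the x axis and replicates 1, 2 and 3 as circles, squares and triangles. The raised set (orange) and the lowered set (blue) lie near 0 to 10 min, move apart at 30 min to between 0.81 and 0.99 and between -0.70 and -0.61, and from there the lowered set stays low while the raised set comes down.

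After 1 h the sets took different courses. Of the raised transcripts 52.7% were still higher than at 10 min at 2 h and 10.7% were lower, beside 21.8% and 22.5% of all tested. At 4 h 39.8% were higher and 17.6% lower, beside 25.1% and 26.6%, and at 8 h 37.5% and 21.4%, beside 26.6% and 27.7%. The median log2 difference of the raised set from 10 min was 0.64 at 2 h, 0.30 at 4 h and 0.20 at 8 h. Much of the rise was thus no longer seen in the set as a whole by 4 to 8 h. At 16 h 36.2% were higher and 19.8% lower, beside 25.3% and 27.1%, and at 6720 min 41.9% and 15.7%, beside 24.8% and 26.6%, with medians of 0.21 and 0.39.

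The lowered transcripts stayed low. At 2, 4, 8 and 16 h 78.0%, 76.9%, 77.0% and 78.0% of them were lower than at 10 min, and at 6720 min 71.4%. Those that were higher were at most 2.73% up to 16 h and 6.75% at 6720 min. Their median difference from 10 min was -0.95 at 2 h, -1.01 at 16 h and -0.90 at 6720 min, so that most of the fall was in place by 1 h. At all 8 times from 1 h on 766 (58.1%) were lower than at 10 min, beside 7.16% of all tested, while 238 of the raised (20.4%) were higher at all 8 times, beside 5.02%. A rise present at 1 h but no longer called at 8 h was found in 365 raised transcripts (31.3%), and in 5.45% of all tested. No call in their own direction at any of the 8 times was made for 274 of the raised (23.5%) and for 102 of the lowered (7.74%). Of all tested 54% were never called higher and 55% never called lower. These contrasts share the 10-min libraries and are given side by side for that reason.

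Most of the lowered transcripts had a common position relative to control in the first minutes of light. In leaves after 5 min of light, whose contrast with control shares no library with the comparison, 981 of the lowered (74.4%) were above control and 58 below it, beside 26.4% and 24.8% of all tested. The median of the set, 5 min minus control, was log2 0.96, with 0.84, 0.95 and 1.01 in replicates 1 to 3. Most transcripts that fell within 30 min of light were thus ones whose level stood above that of leaves without the extended dark treatment. Whether the clock time of harvest had a part in that difference was not tested. The raised transcripts leaned below control, but most of them were not called below it. Of them 461 (39.5%) were below control at 5 min, 140 were above it, and for 565 (48.5%) no difference was called, beside 48.8% of all tested with no call. The median was -0.37, with -0.26, -0.36 and -0.41 in the replicates.

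By 1 h the median of the lowered set was level with control and that of the raised set was above it. The median difference, 1 h minus control, was 0.03 in the lowered set, with 25.7% above and 20.3% below control, near the 24.2% and 20.2% of all tested. In the raised set it was 0.58, with 51.4% above and 5.23% below. At 6720 min 22.0% of the raised and 23.3% of the lowered were above control, and 16.6% and 16.5% were below it, beside 19.3% and 18.3% of all tested, so neither set stood far from the other transcripts by then.

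Raised transcripts that stood below, level with or above control at 5 min had different median courses. The 461 that were below control at 5 min differed from 10 min by a median log2 of 1.15, 1.20 and 0.83 at 1, 2 and 4 h, and of 0.86 at 6720 min. These medians were at their full height early and remained above 0. All 10458 tested transcripts that were below control at 5 min had medians of 0.34, 0.65 and 0.83 at 1, 2 and 4 h, of 0.87 and 0.90 at 8 and 16 h, and of 0.69 at 6720 min. The 565 raised with no difference from control had medians of 0.71, 0.33, 0.03 and -0.04 at 1, 2, 4 and 8 h, a transient. The 140 that were above control at 5 min were still above 10 min at 1 h, with a median of 0.45, but below it at 2, 4 and 16 h with -0.23, -0.61 and -0.94. At 16 h 74.3% of these 140 were lower than at 10 min and 0.714% were higher. Over all tested transcripts above control at 5 min 78.3% were lower and 0.26% higher, with a median of -0.88. Of the 461 that had been below control 69.6% were higher and 1.74% lower, beside 77.5% and 0.44% of all tested below control. At 16 h these shares were thus near those of all tested transcripts of the same position.

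Among the lowered, the 981 that had stood above control had larger and earlier median falls than all tested transcripts of that position. Their median difference from 10 min was -1.02, -1.14 and -1.19 at 1, 2 and 4 h, and -1.15 at 6720 min. All 11135 tested transcripts above control at 5 min had -0.31, -0.66, -0.85 and -0.75 at these times. At 1 h 92.6% of the 981 were lower than at 10 min, beside 34.8% of the 11135. The 279 with no difference from control had -0.57 at 1 h and -0.28 at 4 h. At 6720 min 33.0% of them were lower, beside 17.3% of all tested with no difference. The 58 that were below control had a median of -0.32 at 1 h and then of 0.15 at 2 h, 0.52 at 40 h and 0.65 at 6720 min. At 6720 min 67.2% of these 58 were higher than at 10 min. All tested transcripts below control had a similar 59.9% higher at 6720 min, with a median of 0.69. The comparisons of these classes were described and not tested against each other.

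**Figure D4:**
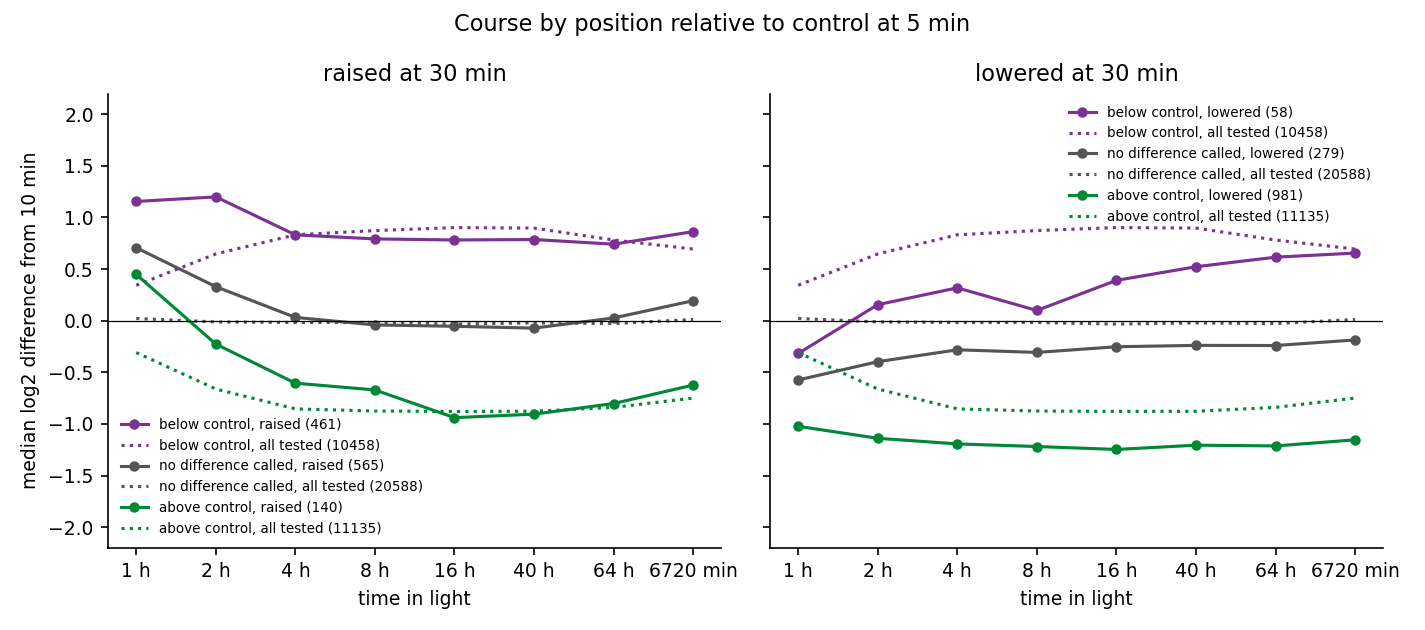
Solid lines give the median log2 difference from 10 min (y axis) at 1 h to 6720 min of light (x axis) for raised (left) and lowered (right) transcripts, split by whether leaves at 5 min were below, above or not different from control, and dotted lines give all tested transcripts of the same class. Raised transcripts below control are up by 1.15 already at 1 h, where the dotted line has 0.34, and raised transcripts above control cross 0 between 1 and 2 h.

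The shares called at 1 h, by the size of the rise at 30 min, were as follows, with no test between classes whose levels and errors differ. Of the 564 raised transcripts under 2-fold, 423 were higher at 1 h than at 10 min, against 61.6% of the 425 between 2- and 4-fold, 58.5% of the 118 between 4- and 8-fold and 25.4% of the 59 of at least 8-fold. In the last class 22.0% were lower at 1 h than at 10 min, but this depended on the starting point, since against 5 min 44.1% were higher and 1.69% lower, beside 73.9% and 1.06% of the rises under 2-fold. At 8 h 10.2% of the 59 were higher and 49.2% lower than at 10 min, with a median log2 difference of -1.98. The falls had like shares at every size. Lower at 1 h than at 10 min were 82.3% of the 991 falls under 2-fold, 83.3% of the 270 between 2- and 4-fold and 82.5% of the 57 of at least 4-fold, with medians of -0.79, -1.48 and -2.91. The median differences of the raised classes, in order of size from under 2-fold to at least 8-fold, were 0.79, 0.94, 1.40 and 0.40 against 10 min, and 0.81, 1.04, 1.90 and 1.29 against 5 min.

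**Figure D5:**
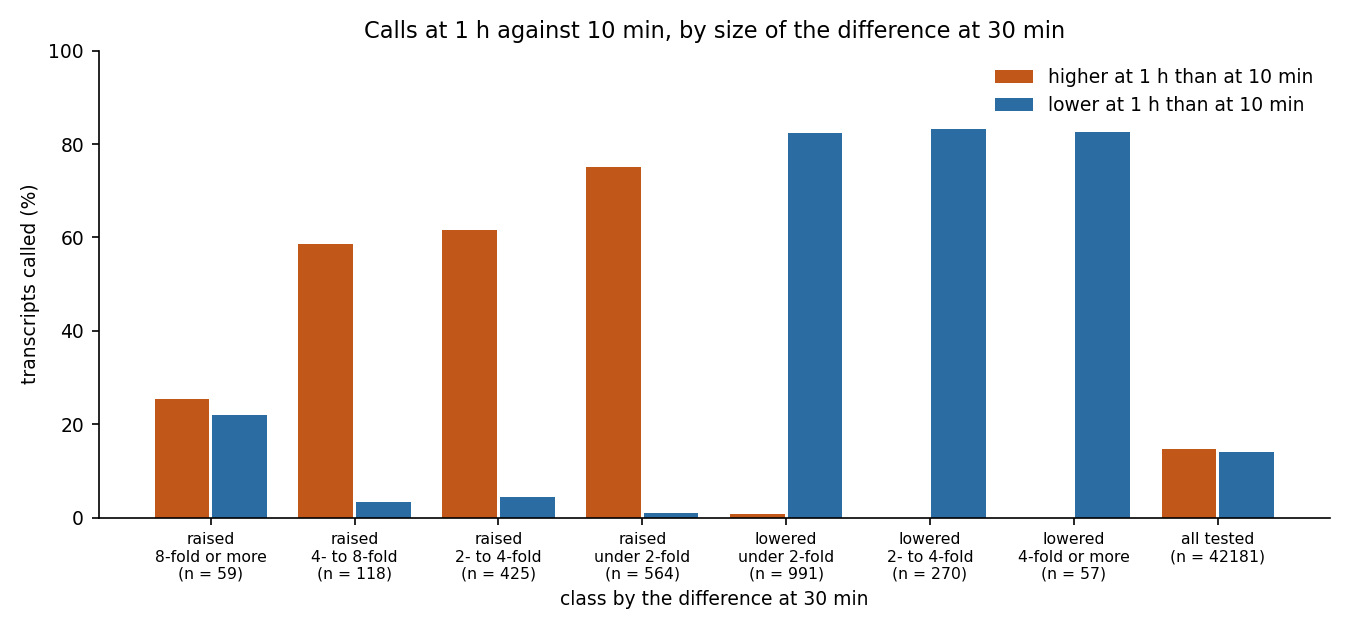
Bars give the percent of transcripts called higher (orange) or lower (blue) at 1 h than at 10 min, for classes by the size of the difference at 30 min and for all tested transcripts, with the number per class under each pair. The orange bars come down to 25.4% from the smallest to the largest rises, and the blue bars of the lowered classes lie between 82.3% and 83.3%.

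Raised transcripts often lay next to raised ones, and lowered next to lowered ones, in the deposited order of identifiers. These numbers of transcripts therefore cannot be read as numbers of independent genes. What neighbouring identifiers have in common is not known here. A raised transcript was the neighbour of 275 of the 1166 raised (23.6%), and of 4.29% of all tested. A lowered transcript was the neighbour of 529 of the 1318 lowered (40.1%), and of 4.95% of all tested. Neighbours of the opposite direction were found for 43 raised and 44 lowered transcripts. Counted as runs, the raised formed 1009 with a longest of 6, and the lowered also 1009 with a longest of 8, so the excess of falls lay in neighbouring transcripts. With 1 transcript per run, 65.7% of the raised were higher and 80.2% of the lowered were lower at 1 h than at 10 min. Reads that match several copies could have been shared among them or dropped in the counting, for which no rule was given in the sources used here.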

How the data were processed

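RNA was measured in 39 leaf pools (13 groups of 3). Per the labels' protocols, polyA RNA was made into TruSeq libraries and read in single ends of 100 bp (HiSeq2500). What the authors deposited are raw counts, whole numbers for each transcript, and their values show no scaling. The submitters' processing notes list FastQC 0.10.1, BWA 0.70 and SAMtools 1.0, with no roles. Reference, counting rule, handling of multiply mapping reads and strand were not given in the sources used here. A passage on extraction in the labels describes another design and was left out.

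Low counts were removed with filterByExpr (edgeR 4.0.16 in R 4.3.3, minimum count 10, minimum total 15), leaving 42181 of 53725 transcripts, which hold 99.9% of all counts, and setting aside 11544. Levels are CPM after TMM scaling (factors 1.04 to 1.12 at 30 min and 0.964 to 1.13 at the end of darkness). Medians of libraries used log2 CPM with a prior count of 1. A quasi-likelihood model with 1 mean per group was fitted to all 39 libraries (glmQLFit, glmQLFTest), with Benjamini-Hochberg adjustment of p over all transcripts tested. The SE of a log2 difference is its size divided by the square root of F. The steps were tested on simulated data. Intervals and floors cover counting error only.

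The sets, classes and rule for printed transcripts were chosen with earlier results of these data known. The rule took the largest fold and the largest CPM difference in each direction among called transcripts whose groups did not overlap and whose higher group averaged 10 CPM or more. Lists of light, clock, chlorophyll, photosynthesis, carotenoid, flavonoid, starvation, stress and cell type genes were not tested, because 0 of 53725 identifiers matched the 79372 genes of the reference table (ASM71507v2). Alternatives were other scalings, no filter, DESeq2 1.42.0, a replicate block, stricter thresholds, fewer libraries and another baseline.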

Additional observations from a re-analysis of the deposited data

How the results depend on the processing

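No transcript called both in the main analysis and in an alternative had opposite directions in them. The 2484 changed transcripts (1166 higher, 1318 lower) became 1331 (614 and 717) at an adjusted p below 0.01, 422 (267 and 155) in a test against a fold of 1.5 (glmTreat), and 1133 (567 and 566) with only the 6 libraries fitted. With 1 library of 30 min or of the end of darkness, or 1 replicate number of all groups, left out there were 865 to 2481 changed, 315 to 990 higher and 452 to 1491 lower. Without replicate 1, 2 or 3 of all groups 1062, 1365 and 865 had changed. DESeq2 gave 2802. Against the mean of 0, 5 and 10 min, a baseline chosen after seeing the data, there were 4511 (2223 and 2288), with more libraries on that side. Replicate numbers paired the libraries in part at most, and the main fit took no account of them. Deviations of same-numbered libraries had r of 0.0355, 0.354 and 0.411 for replicates 1 to 3. Unlike numbers had -0.423 to 0.161, the highest being 30-min replicate 1 with dark replicate 2. A replicate block gave 3532 changed (1605 and 1927), among them all 2484.

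The medians of the raised and lowered sets kept their sign under these alternatives. The alternatives for 5 min minus control and 6720 min minus 10 min were added after seeing the data. For 1 h minus 10 min the raised set had 1.01 with only the groups compared and 0.81 to 1.004 with libraries left out. The lowered set had -1.12 with library size only, -1.04 with only the groups compared, -0.81 with the replicate block and -1.28 to -0.84 with libraries left out. For 5 min minus control the raised set had -0.20 with library size only and -0.50 to -0.29 with libraries left out. The lowered set had 1.31 with library size only, 1.15 with only the groups compared, 0.86 with DESeq2, 0.77 with the replicate block and 0.71 to 1.38 with libraries left out. For 6720 min minus 10 min the raised set had 0.18 with library size only and 0.23 to 0.54 with libraries left out. The lowered set had -1.25 with library size only, -1.01 with only the groups compared, -0.95 without a filter, -0.88 with DESeq2 size factors, -0.84 with DESeq2, -0.77 with the replicate block and -1.20 to -0.71 with libraries left out. Library size alone moved the median of all transcripts to 0.21 for 5 min minus control and to -0.27 for 6720 min minus 10 min. The cause of these shifts was not tested.

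The median SE of a log2 difference was 0.47 under 1 CPM, 0.24 between 1 and 10 CPM, 0.16 between 10 and 100 CPM and 0.20 above 100 CPM.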
